A study of Mus musculus with 4 samples.

Results

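Haemoglobin-rich cells were taken as cells with at least 10% of their UMIs (unique molecular identifiers, which count captured transcripts) from genes whose names start with Hba- or Hbb-, at least 500 UMIs in all and at most 20% of UMIs from mitochondrial genes. They numbered 378 of the 21495 cells within the UMI and mitochondrial limits, called kept cells here, of 24849 deposited. Their summed globin counts chose these members, so globin levels are given as a description, with no test. Hearts of mouse embryos were profiled by Drop-seq, a droplet method that counts transcripts by short reads close to their 3′ ends, with 1 library for each genotype and stage. Control embryos were Wt1 CreERT2/+; Rosa26mTmG/+, and the conditional knockouts (CKO) were Wt1 CreERT2/+; Lats1/2 F/F; Rosa26mTmG/+, each at E13.5 and E14.5, days of embryonic development. All 4 groups thus carried a tamoxifen-activated Cre at Wt1, a gene of the epicardium, and the mTmG recombination reporter, while the floxed Lats1 and Lats2 genes, which encode Hippo pathway kinases, were in CKO embryos alone. Wt1 is not a red cell gene, and recombination in the cells described was not tested. The number of embryos behind each library is not given in the sources used here. Values by library follow the order control E13.5, CKO E13.5, control E14.5, CKO E14.5, and intervals are exact 95% intervals that cover counting error only.

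Red cells of the embryo come in waves. Primitive erythroid cells arise in the yolk sac, enter the blood as nucleated cells and make embryonic globins, while definitive erythroid cells come later from the fetal liver and make adult globins. In the mouse the embryonic β-type genes are Hbb-y and Hbb-bh1 and the embryonic α-type gene is Hba-x. The adult genes are Hbb-bs and Hbb-bt for β and Hba-a1 and Hba-a2 for α.

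The β-type genes lie in 1 cluster on chromosome 7 and the α-type genes in another on chromosome 11 of GRCm38 (GENCODE annotation), the assembly also named mm10, each running from embryonic to adult along the direction of transcription. On the minus strand of chromosome 7, Hbb-y spans 103851749 to 103853216, Hbb-bh1 103841637 to 103843164, Hbb-bs 103826534 to 103828096 and Hbb-bt 103812524 to 103813996. On the plus strand of chromosome 11, Hba-x spans 32276400 to 32278116, Hba-a1 32283511 to 32284465 and Hba-a2 32296489 to 32297298. Over the last 200 bases, where the reads fall, Hba-a1 and Hba-a2 were identical at 99.5% of aligned bases, so the split of counts between them is uncertain. The same value was 81.2% for Hbb-bs and Hbb-bt, 73.4% for Hbb-y and Hbb-bh1, 69.9% for Hbb-y and Hbb-bs and 63.6% for Hba-x and Hba-a1. Embryonic and adult genes were thus less alike than the adult pairs.

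The 120 bases before the start of 5 globin genes are shown because single members used mainly the embryonic or mainly the adult β genes (RefSeq, GRCm38.p6, read 5′ to 3′ on each gene's own strand, with RefSeq starts that differ somewhat from the GENCODE spans above). Capitals mark matches on either strand to CACCC, letters bound by Krüppel-like factors such as Klf1, to CCAAT, the box of that name, to TATAA, the core of the TATA box, or to GATAA, letters bound by GATA factors.
Hbb-y, chr7:103853208-103853327, minus strand: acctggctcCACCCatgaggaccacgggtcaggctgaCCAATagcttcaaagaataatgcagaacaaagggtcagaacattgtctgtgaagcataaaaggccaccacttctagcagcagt
Hbb-bs, chr7:103827929-103828048, minus strand: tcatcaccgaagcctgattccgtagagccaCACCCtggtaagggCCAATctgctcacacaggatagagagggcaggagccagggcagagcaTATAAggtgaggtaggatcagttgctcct
Hbb-bt, chr7:103813924-103814043, minus strand: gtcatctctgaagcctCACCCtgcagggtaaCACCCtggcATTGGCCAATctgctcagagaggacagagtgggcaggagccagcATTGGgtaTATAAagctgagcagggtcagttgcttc
Hba-x, chr11:32276480-32276599, plus strand: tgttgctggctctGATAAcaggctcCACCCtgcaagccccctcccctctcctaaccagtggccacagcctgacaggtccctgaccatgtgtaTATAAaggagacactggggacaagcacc
Hba-a1, chr11:32283552-32283671, plus strand: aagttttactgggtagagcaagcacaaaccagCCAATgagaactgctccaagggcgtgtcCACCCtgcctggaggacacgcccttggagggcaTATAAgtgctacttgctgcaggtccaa
All 5 windows held CACCC, as did 31.7% of the 32851 RefSeq promoter windows of that length. CCAAT was in 4 of the 5, with no such letters in Hba-x, and in 21.3% of all windows. TATAA was in 4 of the 5, with no such letters in Hbb-y, and in 11.9% of all windows. GATAA was in Hba-x among the 5 and in 10.5% of all windows. In Hbb-bt, 2 CCAAT matches on opposite strands stand side by side. A match is a string of letters and not a measured site.

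Members were 43 of 4478 kept cells (0.9603%, 0.696 to 1.29%) in control E13.5, 134 of 5915 kept cells (2.27%, 1.901 to 2.68%) in CKO E13.5, 118 of 5505 kept cells (2.14%, 1.78 to 2.56%) in control E14.5 and 83 of 5597 kept cells (1.48%, 1.18 to 1.84%) in CKO E14.5. Control E13.5 held the smallest share, and the intervals of CKO E13.5 and control E14.5 overlapped. The CKO share was 2.36 times (1.66 to 3.41) the control share at E13.5 and 0.692 times (0.516 to 0.924) at E14.5. The stages gave opposite directions, with 1 library behind each value and no test of the difference. The fewest genes in any member were 533, 503, 300 and 302 by library, so low-complexity cells entered at E14.5 alone. With at least 500 genes asked of every cell, the E14.5 shares were 1.33% in control and 0.911% in CKO. In whole tissue, the amount of blood left in each heart moves such a share, and its part was not tested.

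Globin made 10.1% to 76.6% of a member's UMIs, with medians of 30.4, 18.04, 25 and 25.1% by library. By band, 162 members lay at 10 to 20%, 161 at 20 to 40% and 55 at 40% or more. The 30 members at 10 to 12% had a median of 11.2% globin, and the 46 cells just outside, at 8 to 10%, had 8.83%. A UMI of the erythroid-defining genes described below was found in 9 and 14 of them, at 423 (237 to 698) and 304 (174 to 493) per 1000000 UMIs outside globin and mitochondrial genes, and these intervals overlapped. Members held 67.3% of the kept cells' globin UMIs. Among other kept cells, 56.8, 81.01, 80.6 and 78.1% by library had a globin UMI, at a median globin share of 0.0296, 0.07996, 0.163 and 0.154%. Low globin counts were thus widespread outside the members. Median depth was 2379, 1592, 945 and 1061 UMIs in members and 1584, 2029, 955 and 1034 in other kept cells.

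**Figure D1:**
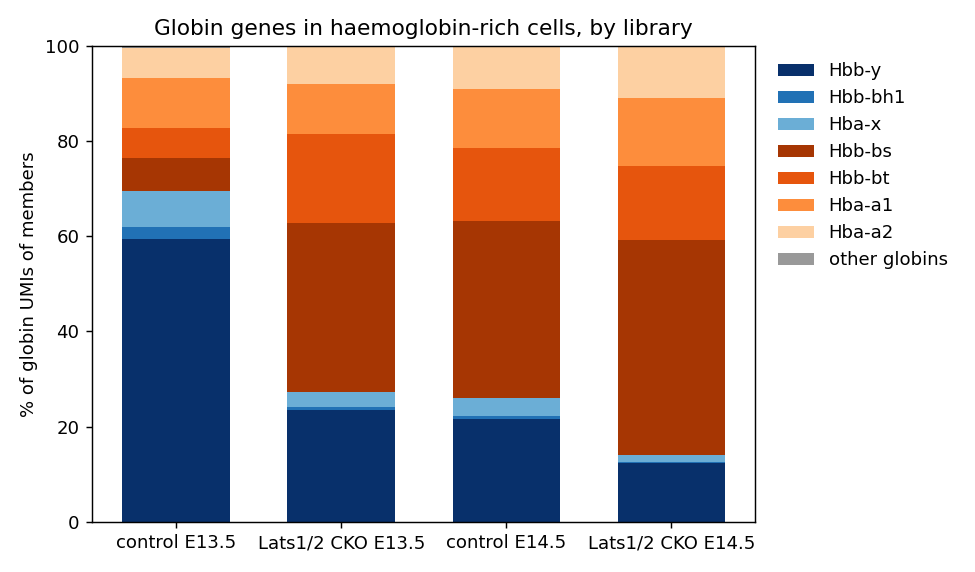
Stacked bars give the percent of the members' globin UMIs (y axis) taken by each globin gene in each of the 4 libraries (x axis). Hbb-y takes the largest part in control E13.5 and Hbb-bs in the other libraries.

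Hbb-y, the main embryonic β gene, took 59.4, 23.6, 21.6 and 12.4% of the members' globin UMIs by library, from 22798, 16314, 8688 and 4831 UMIs. Hbb-bh1, the other embryonic β gene, took 2.66, 0.575, 0.602 and 0.156%. Hba-x, the embryonic α gene, took 7.47, 3.08, 3.69 and 1.501%. All 3 were highest in control E13.5 and lowest in CKO E14.5. An Hbb-y UMI was found in 43, 104, 87 and 47 of the 43, 134, 118 and 83 members.

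Adult β genes ran the other way. Hbb-bs took 6.88, 35.7, 37.3 and 45.1% of globin UMIs and Hbb-bt 6.38, 18.6, 15.4 and 15.8%. Both were lowest in control E13.5. The adult α genes varied less, with Hba-a1 at 10.6, 10.6, 12.3 and 14.2% and Hba-a2 at 6.32, 7.76, 8.79 and 10.9%. Hbb-bh0, a pseudogene of the β cluster, had 100, 26, 34 and 13 UMIs. α-type UMIs were 0.324, 0.274, 0.331 and 0.362 times the β-type UMIs, and counts from different genes do not measure chain amounts.

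The 3 embryonic genes together took 69.5, 27.2, 25.9 and 14.01% of the members' globin UMIs by library. In CKO the share was 0.392 times (0.384 to 0.399) that of control at E13.5 and 0.541 times (0.524 to 0.559) at E14.5. At E14.5 it was 0.373 times (0.364 to 0.381) the E13.5 share in control and 0.515 times (0.4997 to 0.531) in CKO. Over all members the share was lower in CKO within each stage and lower at E14.5 within each genotype, and CKO E13.5 lay close to control E14.5. In the 162 members of 10 to 20% globin it was 67.1, 32.7, 21.2 and 23.4%. By summed UMIs, CKO E14.5 (22.5 to 24.4%, 31 cells) there lay above control E14.5 (20.3 to 22.1%, 42 cells). The deepest of the 31 cells had 8769 UMIs outside globin and mitochondrial genes and 86.85% embryonic β UMIs. It weighs heavily in that sum, so no reversal between genotypes can be read from this band. In CKO E13.5, 1 cell of the band had 15718 such UMIs and 82.94% embryonic β UMIs, and it weighs on the 32.7% likewise. UMIs of 1 cell are not independent, and the spread between embryos cannot be told from 1 library per group.

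In the other kept cells, outside the rule, embryonic genes took 69.1, 31.6, 31.04 and 15.9% of 7059, 24507, 36590 and 22813 globin UMIs. Each library's other cells lay within a few points of its members. In the 89 members of an erythroid cluster found without globin genes, described below, the shares were 68.8, 13.4, 28.9 and 8.07%, from 18, 27, 24 and 20 cells. There CKO E13.5 lay below control E14.5, while the lower values in CKO within a stage and at E14.5 within a genotype were again seen. In members of 40% globin or more the shares were 76.7, 35.8, 31.8 and 11.3%.

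**Figure D2:**
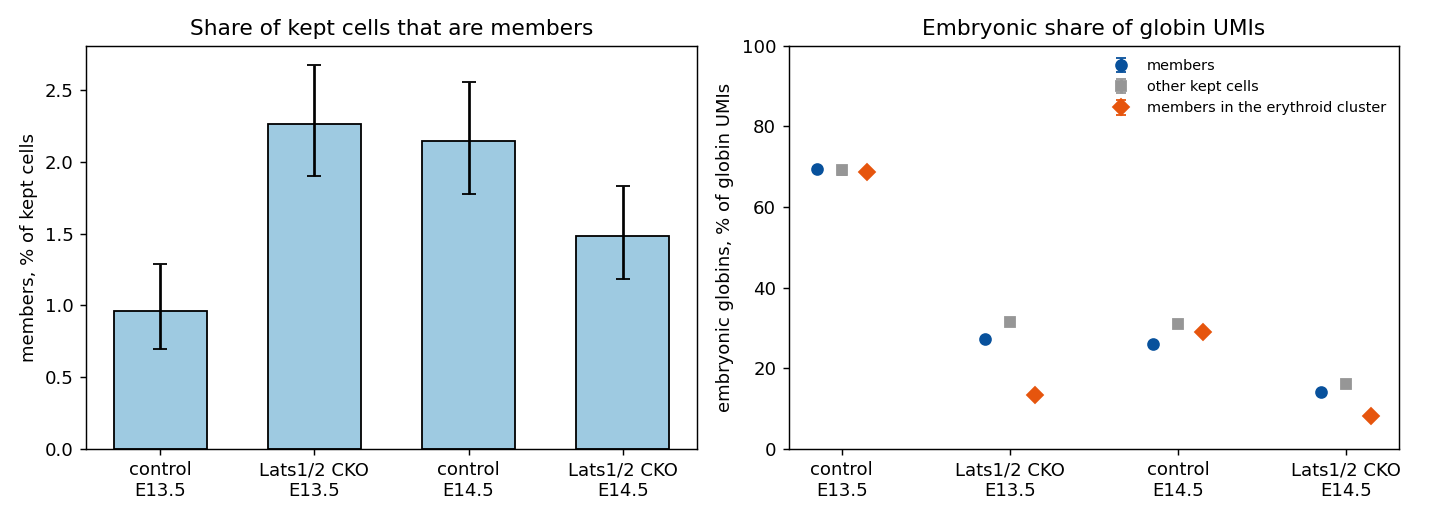
The panels give members as a percent of kept cells and embryonic genes as a percent of globin UMIs (y axes) by library (x axes), with exact 95% counting intervals. Control E13.5 has the fewest members and the highest embryonic share, and CKO E14.5 the lowest embryonic share.

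Single members used mainly 1 kind of β gene. A cell was called embryonic-β where Hbb-y and Hbb-bh1 gave at least 70% of its UMIs of the 4 main β genes and adult-β at 30% or less, limits set after the distribution was seen. Of 378 members, 148 were embryonic-β, 222 adult-β and 8 between. Embryonic-β cells were 39 of 43 (90.7%, 77.9 to 97.4%) in control E13.5, 53 of 134 (39.6%, 31.2 to 48.4%) in CKO E13.5, 39 of 118 (33.1%, 24.7 to 42.3%) in control E14.5 and 17 of 83 (20.5%, 12.4 to 30.8%) in CKO E14.5. The embryonic part of β UMIs had a median of 88.8% in embryonic-β cells (71.2 to 99.3%) and 0.5703% in adult-β cells (0 to 27.9%). Libraries with a higher embryonic share held a larger part of embryonic-β cells. Both values draw on the same Hbb-y and Hbb-bh1 UMIs, so they are not independent.

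**Figure D3:**
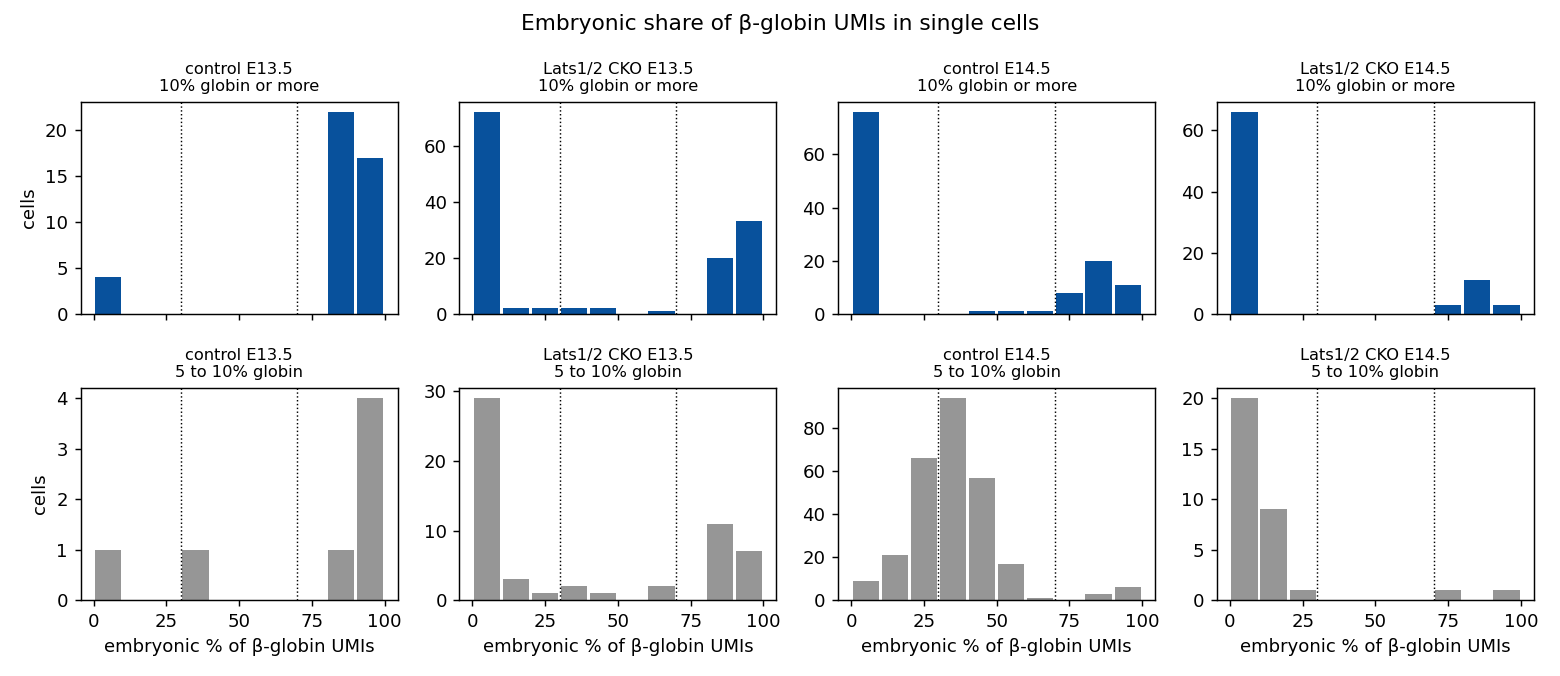
Histograms count cells (y axis) by the embryonic percent of their β-globin UMIs (x axis), for members and for cells of 5 to 10% globin in each library. Members gather at the ends of the axis, while many cells of 5 to 10% globin in control E14.5 lie between 30% and 70%.

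Cells just under the limit lay between the types mainly in 1 library. Of 369 kept cells with 5 to 10% globin, 34 were embryonic-β, 160 adult-β and 175 between, and control E14.5 supplied 274 of these cells and 169 of those between. Their median embryonic part of β UMIs in control E14.5 was 34.6%. In CKO E14.5 the 32 cells of 5 to 10% globin had a median of 7.02%, against 0.339% in members, with 0 of the 32 between the types.

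Hba-x, which the β split did not use, also differed between the types when UMIs were summed over their cells. It made 32.5, 38.7, 34 and 28.8% of α UMIs in embryonic-β members by library. In adult-β members it made 0.189, 0.388, 0.453 and 0.0479%. The summed share was higher in embryonic-β members of every library, and its spread over single cells was not examined. Pooled, Hba-x made 34.03% (33.4 to 34.7%) of 20218 α UMIs against 0.279% (0.216 to 0.354%) of 23698. Adult α genes were therefore the larger part of α UMIs even in embryonic-β members. In the 8 cells between the types Hba-x made 18.5%.

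The adult β pair also differed in ratio. Hbb-bs had 0.724, 1.05, 1.13 and 2.47 times the UMIs of Hbb-bt in embryonic-β members and 2.17, 1.99, 2.57 and 2.88 times in adult-β members. Embryonic-β members were the lower in every library, though those of CKO E14.5 lay within the adult-β range. Hbb-bh1 made 2.72% of embryonic β UMIs in embryonic-β members and 40.3% in adult-β members, the latter from 269 UMIs of Hbb-bh1 and 399 of Hbb-y.

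The label erythroid was checked with genes the rule did not use. The 15 erythroid-defining genes measured, such as Alas2, the first enzyme of red cell haem synthesis, and Slc4a1, the band 3 anion exchanger, had 1700 UMIs per 1000000 other UMIs in members (1588 to 1817). Other UMIs are those of genes that are neither globin nor mitochondrial. Other kept cells had 18.3 per 1000000. By library the levels were 1995, 1704, 1457 and 1679 in members and 12.97, 19.1, 19.5 and 22.3 in other cells, with no overlap. Thinned to 250 other UMIs a cell, 26.2% of members and 0.507% of other cells had a UMI of the list, and unthinned 53.2% and 3.08% at median depths of 843 and 1257 other UMIs.

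Summed over libraries, the erythroid list stood higher in each higher band of globin share. From under 1%, through 1 to 5, 5 to 10, 10 to 20 and 20 to 40, to 40% or more, it had 15.4, 102, 202, 839, 1904 and 6108 UMIs per 1000000. The order did not hold in CKO E14.5, with 1185 at 10 to 20% and 1157 at 20 to 40%. The 16 cardiomyocyte genes, among them sarcomere genes, had 40670, 37560, 49110, 41630, 24300 and 23130 in the same bands. By library the cardiomyocyte list had 19090, 32730, 44060 and 34860 per 1000000 in members and 35060, 36710, 49360 and 46940 in other kept cells. Heart muscle transcripts were thus present at every globin share. Whether they came from a second cell in the droplet or from free RNA was not tested.

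**Figure D4:**
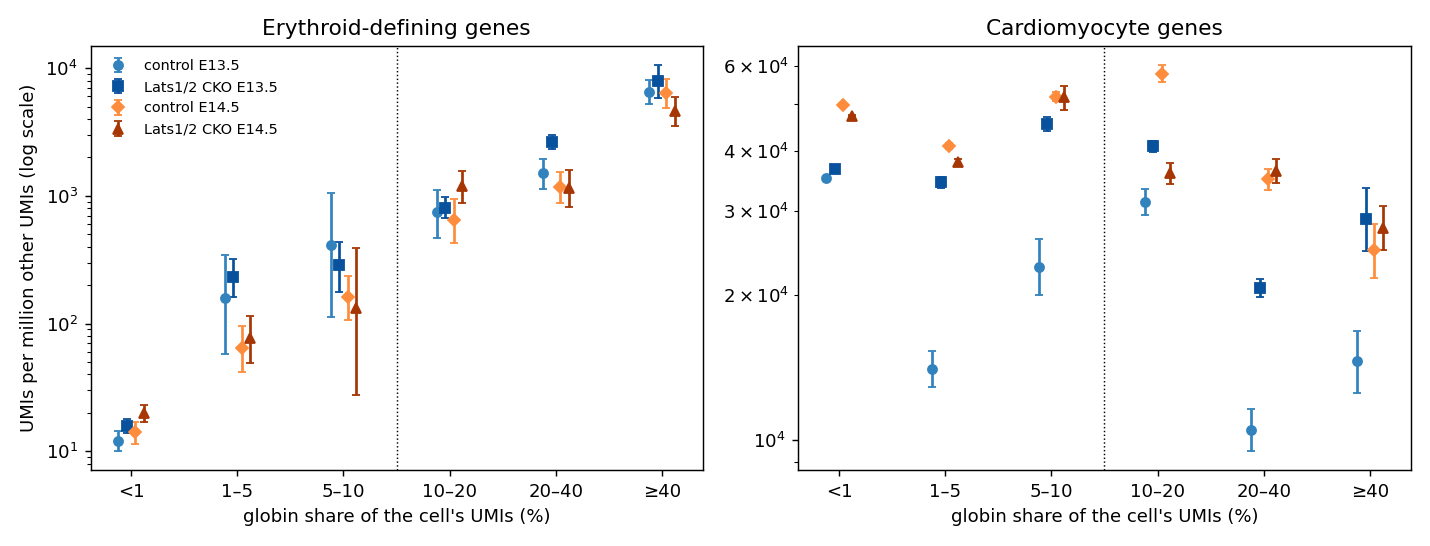
Points give UMIs per 1000000 other UMIs (y axes, log scale) of the erythroid-defining and cardiomyocyte lists by band of globin share (x axes) and library, with exact 95% counting intervals. Summed over libraries the erythroid list is higher in each higher band, and the cardiomyocyte list is present in all bands.

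Clustering without globin genes spread the members over many clusters. At resolution 1.0, 136 members (35.98%) lay with 1017 other cells in a cluster with Car2, Alas2 and Slc4a1 among its leading genes. Another 91 lay in cardiomyocyte-like clusters, 38 in endocardial-like, 38 in valve mesenchyme-like, 25 in mural-like, 14 in macrophage-like, 10 in endothelial-like, 10 in epicardial-like and 8 in fibroblast-like clusters, and 8 in one without a name. At resolution 2.0 the erythroid cluster narrowed to 96 cells, 89 of them members (23.5%), and this narrow cluster, chosen after the data were seen, is the one named elsewhere. Most members therefore did not have erythroid genes as their leading identity, and the neutral name haemoglobin-rich is used.

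The 89 members of the narrow cluster had a median of 37.4% globin and 5717 erythroid UMIs per 1000000 (5270 to 6191). The other 289 had 19.9% and 634 (558 to 717). Members in cardiomyocyte-like clusters had cardiomyocyte markers at 77070 per 1000000, beside 76950 in other cells there, and erythroid genes at 445 against 13.9. Mural-like members had their own markers at 3671 against 6146, and erythroid genes at 800 against 9.03. Both kinds thus carried erythroid transcripts beside the markers of another type. Doublets could not be settled, since the caller used marked too few cells to have worked.

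Of 19325 genes outside the globins and mitochondria with at least 20 UMIs, 42 (0.217%) were over 2-fold higher in members than in other kept cells of all 4 libraries, with 10 per 1000000 added to each level, and 1 (0.00517%), Dffa, was over 2-fold lower. With that addition, a gene at 10 per 1000000 or less in the other cells of any library could not count as lower. The higher and lower counts therefore cannot be set against each other. Dffa was named after its value was seen. The counts describe cells chosen by their globins and carry no test. Among the higher genes, 25 stood on the red cell lists.

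Of the erythroid-defining list 11 of 14 genes with enough UMIs were over 2-fold higher, with a median log2 difference of 2.66 beside -0.11 over all genes. Alas2 had 471, 665, 602 and 665 per 1000000 in members by library and 1.03, 2.77, 5.81 and 4.13 in other cells. Slc4a1 had 384, 179, 106 and 169 against 1.13, 0.678, 1.36 and 0.472. Members and other cells did not overlap for either gene. Klf1, a master transcription factor of red cells, had 0, 18, 3 and 5 UMIs in members, and Gata1, another, had 1, 3, 0 and 0.

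The membrane and skeleton list, whose genes build the red cell envelope, had 10 of 17 over 2-fold higher. Haem synthesis had 2 of 11, Alas2 and Fech, the last enzyme of the path. Fech had 309.8, 241, 95.01 and 180.3 per 1000000 in members against 43.98, 41.2, 32.8 and 38.1. Iron supply had 2 of 7, Slc25a37, the mitochondrial iron carrier mitoferrin, and Fth1, the ferritin heavy chain. Slc25a37 had 309.8, 299, 179.5 and 203 against 21.9, 22.1, 22.4 and 15.8. Red cell maturation had 5 of 8, among them Ube2l6, Mkrn1, Fam46c and Hemgn.

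Red cell metabolism had 4 of 6 over 2-fold higher, Bpgm, Car2, Blvrb and Gpx1. Car2, a carbonic anhydrase, had 942, 686, 845 and 800 per 1000000 against 18.6, 22.4, 21.6 and 18.3. Gpx1, a glutathione peroxidase, had 3147, 2457, 2840 and 1758 against 509, 545, 441 and 441. Lineage transcription factors had 1 of 9, Tal1, and genes known in globin switching, such as Bcl11a and Sox6, 0 of 8. Progenitor, S phase and G2M phase lists and the lists of 11 other cell types had 0 in either direction, though genes of low level could not count as lower. Of 16 cardiomyocyte genes 14 were lower in members of all 4 libraries, as were 4387 of all 19325 genes. The list median was -0.33 on the log2 scale, beside -0.11 over all genes. Epicardial, endothelial and endocardial lists stood at -0.60, -0.34 and -0.32, and the fibroblast list at 0.14.

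The 55 members of 40% globin or more were also ranked against other kept cells by each gene's smallest ratio over the libraries. Counts under 3 UMIs in the other cells of a library were set to 3, as happened for Hsd3b6. Hsd3b6, a steroid dehydrogenase gene, led at 669 from 22 UMIs. Slc4a1 stood at 469 from 32 UMIs, Trim10 at 329 from 15 and Alas2 at 311 from 75. Lower among the 20 genes of this ranking were Hemgn, Kel, Ermap, Car2, Ctse, Icam4, Fam46c, AK157302_AL589742.1, Slc25a37, Ypel4, Bpgm, Blvrb, Plek2 and Gpx1.

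Embryonic-β and adult-β members differed in further genes. Of 5068 genes with at least 20 UMIs, 11 (0.217%) were over 2-fold higher and 16 (0.316%) over 2-fold lower in embryonic-β members of all 4 libraries, with 10 per 1000000 added. The split was made after the data were seen, so these are counts without a test, and control E13.5 had 4 adult-β cells. Without control E13.5 the counts were 10 and 36, without CKO E13.5 33 and 33, without control E14.5 26 and 37, and without CKO E14.5 22 and 19. Genes with over 50 UMIs, a limit also set afterwards, were used for the examples that follow.

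Nudt4, a diphosphoinositol polyphosphate hydrolase, had 240, 58, 48 and 19 UMIs in embryonic-β members by library and 0, 29, 15 and 12 in adult-β members, 8.85 times as high pooled (6.66 to 11.9). Without control E13.5 the Nudt4 ratio was 4.54 times (3.29 to 6.34). Hsd3b6 had 30, 13, 7 and 10 against 0, 3, 0 and 0, 27.1 times as high pooled (8.85 to 135), and without CKO E13.5 adult-β members had 0 UMIs of it. Pdzk1ip1, a membrane protein gene, had 38, 17, 5 and 1 against 0, 2, 2 and 0, 20.7 times as high pooled (7.68 to 78.4). Its ratio was 11.7 times (3.997 to 46.5) without control E13.5 and 33.9 times (8.95 to 287) without control E14.5. With Hba-x, these were the named genes higher in embryonic-β members, and control E13.5 gave the most UMIs of each.

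Mkrn1, a red cell maturation gene, had 19, 8, 6 and 3 UMIs in embryonic-β members by library against 6, 54, 29 and 36 in adult-β members, 2.56 times as high in adult-β members pooled (1.75 to 3.82). It was over 2-fold lower in embryonic-β members of every library. Alas2, with 34, 17, 8 and 2 against 4, 139, 48 and 57 UMIs, was lower per 1000000 in all 4 libraries without passing 2-fold in each, and Slc4a1 was higher in 2 of them.

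**Figure D5:**
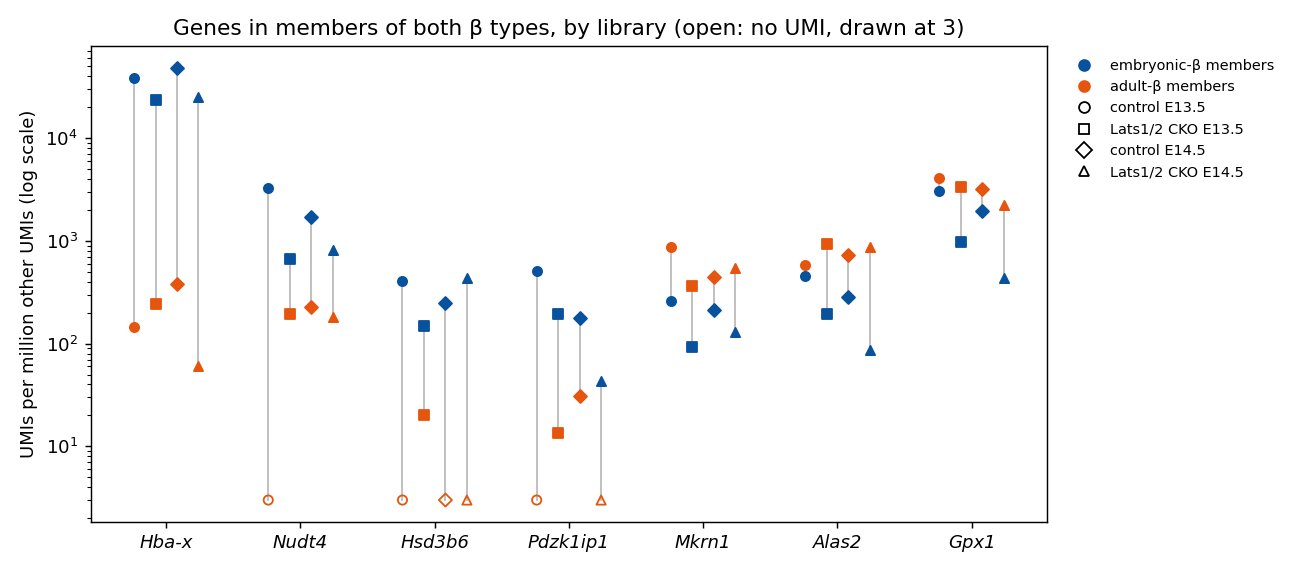
Points give UMIs per 1000000 other UMIs (y axis, log scale) of named genes (x axis) in embryonic-β and adult-β members of each library. Hba-x, Nudt4, Hsd3b6 and Pdzk1ip1 are higher in embryonic-β members of every library, and Mkrn1, Alas2 and Gpx1 in adult-β members.

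The erythroid-defining list had 2058, 312, 888 and 173 UMIs per 1000000 other UMIs in embryonic-β members by library and 1311, 2537, 1607 and 2208 in adult-β members. Adult-β members were higher in 3 libraries, with intervals apart, and in control E13.5 the intervals overlapped (1744 to 2413 against 599 to 2488). The narrow erythroid cluster held 16, 3, 6 and 1 of the 39, 53, 39 and 17 embryonic-β members and 2, 22, 16 and 19 of the 4, 76, 76 and 66 adult-β members.

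Genotype and stage were tested on counts summed over each library's members, with edgeR's quasi-likelihood fit of both factors to 4 libraries and Benjamini-Hochberg adjustment over 2250 genes. The fit has 1 residual degree of freedom, and globins are not reported from it. By genotype 1 gene was called (0.0444%), the ribosomal protein pseudogene Rps13-ps1, with 0, 95, 1 and 41 UMIs by library (log2 6.02, SE 0.69, edgeR adjusted p = 0.00446), higher in CKO at 2 of 2 stages. Other kept cells had 37, 5511, 11 and 3501 UMIs of it, so the difference ran through whole libraries. At an unadjusted p under 0.05 there were 125 genes. DESeq2 called 4, and edgeR called 15 with cells of at least 500 genes.

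Of the red cell lists 0 genes passed by genotype, with 5, 7, 2, 4, 5 and 6 tested for erythroid-defining, haem synthesis, iron, membrane, maturation and metabolism. The erythroid-defining median was 0.03 on the log2 scale. Ranked by the ratio at both stages, Fabp4, Gm11942, Gm8420 and Rps15a-ps8 were the next higher in CKO, and Gm17660_Gm43333, Fos, Fam210b, Paip2 and Dynlt3 lower. Fabp4, a fatty acid binding protein of capillary endothelium, had 0, 78, 20 and 99 UMIs (edgeR adjusted p = 0.0719). Fos, an immediate early gene, had 115, 141, 77 and 28 (edgeR adjusted p = 0.562). None of these 9 passed the threshold. In other kept cells the log2 CKO difference at E13.5 and E14.5 was 2.63 and 2.32 for Gm11942 and 2.44 and 4.03 for Gm8420. It was 2.41 and 1.86 for Rps15a-ps8 and -2.51 and -1.68 for Gm17660_Gm43333, so these differences ran through whole libraries. Fos stood at -0.37 and -0.71 there. Fabp4, at 0.33 and -0.096, and Fam210b, Paip2 and Dynlt3 changed sign between stages there. Members in endothelial-like clusters numbered 0, 3, 2 and 5 by library. The 4 endothelial genes tested in members, Fabp4 among them, had a median log2 CKO difference of 2.23, with 0 called. Whether a differing number of endothelial-like members gave the Fabp4 difference was not tested.

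By stage 40 genes were called (1.78%), all 40 higher at E14.5, and 27 encode ribosomal proteins. Rps12 had 0, 1, 85 and 108 UMIs by library (log2 8.16, SE 0.64, edgeR adjusted p = 7.9e-05), higher at E14.5 in 2 of 2 genotypes. Rpl23a had 0, 0, 95 and 72, Rps27a 2, 7, 100 and 103 and Rpl28 0, 1, 41 and 51. Ppia, Fau, Rpl17, Rpl36a, Rps29 and Rps23 completed the 10 of smallest p. The stages did not overlap in the 4 genes given with counts, but these were picked by smallest p, so this adds no support.

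These stage differences were also present outside the members. In other kept cells 37 of the 40 genes were over 2-fold higher at E14.5 in both genotypes, with a median log2 difference of 3.73 in control and 2.90 in CKO, beside 3.12 and 2.89 in members. Rps12 had 107, 289, 7396 and 7691 UMIs there by library. Library preparation and stage cannot be told apart with 1 library per group. Of the red cell lists 0 genes passed by stage, and the erythroid-defining median was -0.28 on the log2 scale. Leaving out the cells of highest doublet score took 2 members, both of CKO E14.5, and the stage count was then 83, 62 higher and 21 lower.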

How the data were processed

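Drop-seq libraries of 4 samples were deposited by the authors as 1 table of whole-number UMI counts per gene and cell. STAR, Picard and mm10 are named per the submitters' processing notes, with no parameters. The cells' name suffixes give genotype and stage, and 0 columns were left unmapped. The series' design text and the sample labels differ slightly in the earlier day, and the labels were followed. The members and gene lists were chosen with earlier results of these data known.

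Counts were summed over members by library. Levels are UMIs per 1000000 UMIs of genes that are neither globin nor mitochondrial, with exact Poisson or Clopper-Pearson 95% intervals. Genotype and stage were fitted together with edgeR 4.0.16 in R 4.3.3 (quasi-likelihood, TMM, filterByExpr), and DESeq2 1.42.0 was an alternative. With 1 library per group there is no replicate check. The p-values are for the genotype or stage coefficient. Their error comes only from how 4 libraries depart from additive effects and from variation shared across genes, not from spread between embryos. Counts were also simulated for 2250 genes, with 1 dispersion for every gene and no added spread between embryos. There 88.6% of 4-fold changes were recovered for genotype and 82% for stage, with 3 and 7 false calls. The real libraries may vary more, so these values do not give the power of the fit. Cells were clustered with scanpy 1.11.5 in Python 3.11.15 without globin genes (2954 variable genes, 30 principal components, 15 neighbours, Leiden). Scrublet called 7, 0, 1 and 2 doublets by library and 0 members, so the top 5% of its scores were left out as an alternative instead. Of the kept cells 18 had a barcode that another library also held, 1 of them a member, and 38 members had a barcode ending in N. Of cells with 10% globin or more, 8 were left out for under 500 UMIs and 0 for mitochondrial share.

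Genes named were all globins, the erythroid marker list, examples from each list, up to 10 called genes each way by smallest p, or up to 5 each way by ratio where fewer than 5 were called, and the 20 leading genes of members with at least 40% globin. Genes named between β types were chosen after their values were seen. Some genes within these rules are not reported here.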

Additional observations from a re-analysis of the deposited data

Results flagged for a closer look

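The share of kept cells that were haemoglobin-rich was 2.36 times as high in CKO as in control at E13.5 (1.66 to 3.41) and 0.692 times at E14.5 (0.516 to 0.924). The stages lay on opposite sides of 1, and the difference between them was not tested, with 1 library for each genotype and stage. The ratios were 1.54 and 0.673 with at least 20% globin, and 1.89 and 0.814 with at least 1000 UMIs.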

How the results depend on the processing

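Of 78 values recomputed under another setting, 38 stayed within the interval or within 1.5 times the count reported and 40 moved. With at least 20% globin, members were 0.648, 0.998, 1.38 and 0.929% of kept cells by library (control E13.5, CKO E13.5, control E14.5, CKO E14.5), the embryonic share of globin UMIs was 70.01, 24.1, 26.99 and 11.6%, and the erythroid level was 2771, 2971, 2097 and 2162 per 1000000. With at least 1000 UMIs the embryonic share was 26.6% in CKO E13.5, 25.2% in control E14.5 and 12.9% in CKO E14.5. With at least 500 genes, control E14.5 had 1.33% members and an embryonic share of 20.7%, and CKO E14.5 had 0.911%, 12.1% and an erythroid level of 1141. Leaving out the highest doublet scores removed 2 members, both of CKO E14.5, where the embryonic share was then 11.98%. In the erythroid cluster alone, a setting chosen after seeing the data, the embryonic shares were 68.8, 13.4, 28.9 and 8.07%. That cluster held 23.5% of members at resolution 2.0. Genotype calls numbered 4 with DESeq2, 14 with no filter on low counts, 5 without globin genes, 15 without the highest doublet scores and 15 with at least 500 genes. Stage calls numbered 83 without the highest doublet scores and 60 with at least 500 genes. The cause was not tested. Counts between β types, leaving out each library in turn, ranged from 10 to 33 higher and 19 to 37 lower. With 20 per 1000000 added they were 8 and 8, and in the erythroid cluster alone 10 and 36, all chosen after seeing the data. Of 66 pairs of a named called gene and a setting, 66 had the same direction and 65 passed the threshold. No paired analysis was possible because the 1 library of each group leaves no replicate numbers to pair, and the fit of genotype and stage together already compares genotypes within a stage.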
